A study of Arabidopsis thaliana with 12 samples.

Results

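The comparison described here set plants that lack DJC62 against wild-type plants, in Arabidopsis thaliana. Its libraries were chosen by genotype label alone, 3 of djc62 and 3 of wild type, which are 6 of the 12 libraries of the series. All 36917 loci of the deposited table belong to it, and 19975 of them had enough reads to be tested, while 16942 did not. The djc62 plants carry the insertion line SALK_050913, and the wild type is Col-0. The other 6 libraries are from the double mutant djc31 djc62 and from djc31 (line SALK_034886), 3 each. They were used to set values beside these and to help estimate the spread of each locus. Whole plants of every genotype were grown on soil until they had 4 leaves, in days of 16 h light (100 µmol photons per square metre and second, 21 °C) and nights of 8 h (16 °C). The series as a whole concerns DJC31 and DJC62 in the response to abiotic stress, but no stress treatment is named in the labels, nor is the time of day at which plants were taken. Each mutant is a single insertion line as far as the labels say, so a second lesion in a line cannot be told apart from the loss of its DJC gene. Whether the 3 libraries of a genotype stem from different plants or sowings is not stated, so each p-value measures the spread among these libraries only, and that spread may be technical.

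DJC31 and DJC62 are co-chaperones that join a tetratricopeptide repeat (TPR) domain to a J domain. TPR domains of this kind bind the carboxyl ends of HSP70 and HSP90, and J domains stimulate the ATPase of HSP70, so such proteins can hand client proteins from one chaperone to the other. HSP70 and HSP90 keep many signalling proteins in an active fold, among them disease resistance receptors and hormone receptors. In leaves, jasmonate and salicylic acid direct defence against chewing insects and against pathogens, and glucosinolates are the sulfur-rich defence compounds of the cabbage family that are made under jasmonate control.

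Values are normalised read counts as the authors deposited them, and a change is a difference of log2(normalised count + 1), djc62 minus wild type, with its standard error (SE). A gene "rose" or "fell" where its adjusted p-value was under 0.05 in limma with Benjamini-Hochberg adjustment over all 19975 loci tested. This scale understates the change of genes with few reads. Because whole plants were measured, fewer cells of a type and less RNA per cell cannot be told apart.

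Reads in genes numbered 22.473 to 30.71 M in the djc62 libraries and 23.818 to 31.085 M in the wild-type libraries (M, mega). For 34 loci the wild-type libraries held no more than 3 reads in sum, while every library of all 3 mutants had a normalised count of at least 50, so the wild-type plants stood apart from the mutants at loci that were not the targets. These 34 loci all rose in djc62, which follows from the rule that chose them. Of the 34, 16 lie on chromosome 3 and 10 on chromosome 1, and 2 differed between djc62 and djc31. A set of 610 tested loci held these 34 and the loci within 20 places of one of them along a chromosome. Of this set 38.5% changed in djc62 against wild type, beside 26.3% of the 19365 other tested loci. The 34 chosen loci themselves raise the first share. Clock genes differed between djc62 and wild type as well, as described further on. A difference between the wild-type and the mutant plants in background or in sampling time cannot be told apart from an effect of DJC62 by the comparison with wild type alone. For that reason the main results are set beside 2 other comparisons. In the double mutant against djc31, loss of DJC62 is compared in plants that all lack DJC31, and no djc62 or wild-type library enters the difference. The comparison of djc62 against djc31 tests whether the 2 single mutants differ, and its difference uses no wild-type value. The spread in every test was estimated over all 12 libraries, so the p-values of these comparisons are not independent.

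The targeted gene was lower in its mutant. DJC62 (AT2G41520, chromosome 2) had 103.7, 194.2 and 185.6 normalised counts in the djc62 libraries, against 525.5, 587.3 and 436.0 in the wild-type libraries. The groups did not overlap, and the means were 161.1 ± 50 in djc62 and 516.2 ± 76.1 in wild type (SD, n = 3 each). The log2 change was -1.72 ± 0.25 (SE), with an adjusted p of 5.26e-05. The labels do not give the position of the insertion in the gene, so the reads that remain do not measure intact transcript. DJC62 had 74.6, 93.8 and 58.6 normalised counts in the double mutant, against 310.6, 494.1 and 433.6 in djc31 (log2 change -2.43 ± 0.25 SE, adjusted p = 3.55e-06). DJC31 (AT5G12430, chromosome 5), the related TPR and J-domain gene, had 805.0, 914.0 and 917.2 normalised counts in djc62, against 783.6, 699.7 and 696.8 in wild type. All 3 djc62 libraries were higher, but the change of 0.27 ± 0.19 (SE) did not pass the test (adjusted p = 0.329).

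Loss of DJC62 was accompanied by many moderate changes. Of the loci tested, 5326 changed between djc62 and wild type (26.7%), of which 2727 rose (13.7%) and 2599 fell (13.0%). Their median absolute log2 change was 0.77, and the median change of all tested loci was -0.0046. More than 2-fold changes were seen for 1000 loci that rose and 939 that fell, and more than 8-fold changes for 199 and 94. The djc62 and wild-type libraries did not overlap at 8301 loci (41.6%). In the double mutant against djc31, 6255 loci changed (31.3%), with 3057 that rose (15.3%) and 3198 that fell (16.0%). Between djc62 and djc31 the count was 2749 (13.8%), with 1581 higher in djc62 (7.91%) and 1168 lower (5.85%). Single libraries moved these last counts most: 4073 loci changed in the double mutant against djc31 without double mutant replicate 2, and djc62 and djc31 differed at 1112 loci without djc62 replicate 3 and at 1518 without djc62 replicate 2.

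The same locus often moved in different directions in djc62 against wild type and in the double mutant against djc31. Wild-type means enter only the first of these, so a difference of the wild-type plants cannot be told apart from an effect of DJC31. Of 2037 loci that changed both in djc62 against wild type and in the double mutant against djc31, 331 rose in both (1.66% of loci tested, 12.1% of the rises in djc62 and 10.8% of those in the double mutant) and 362 fell in both (1.81% of loci tested, 13.9% and 11.3% of the falls). Another 614 rose in djc62 against wild type and fell in the double mutant against djc31, and 730 did the reverse. The change on loss of DJC62 differed with and without DJC31 at 6236 loci (31.2%) by the test of the difference itself. Across loci the 2 changes had a Pearson correlation of -0.14, given as a description, since genes are not independent replicates. Both against wild type and against djc31, djc62 was higher at 637 loci (3.19% of those tested) and lower at 389 (1.95%). These are 23.4% and 15% of the loci that rose and fell against wild type, and 40.3% and 33.3% of those higher and lower than in djc31, and both tests use the djc62 libraries.

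Genes of jasmonate synthesis rose together in djc62. Of 15 tested genes of the pathway 11 rose and 0 fell, with a median log2 change of 0.95, beside the 13.7% of all tested loci that rose. Most of them also rose in djc31 against wild type, 10 of 15 with 3 that fell (median 0.62). The pathway starts in the plastid, where lipoxygenases such as LOX2 and LOX3 oxygenate linolenic acid and allene oxide cyclases (AOC) close the ring, and continues in peroxisomes with the reductase OPR3. LOX3 had 3400, 3553 and 2949 normalised counts in djc62 libraries, against 684.0, 457.9 and 622.6 in wild-type libraries. Every djc62 library was far above the highest wild-type library, and the log2 change was 2.50 ± 0.22 (SE, adjusted p = 2.82e-07). OPR3 stood at 10061, 7535 and 7327 in djc62, against 1574, 1595 and 1259 in wild type, again without overlap (2.48 ± 0.19 SE, adjusted p = 5.43e-08). AOC1 had the steepest rise of the named synthesis genes, with 6847 ± 949.5 in djc62 and 892.9 ± 84.6 in wild type (2.93 ± 0.17 SE, adjusted p = 6.60e-10). LOX2, the most abundant lipoxygenase of the list, averaged 21476 ± 1050 in djc62 and 7298 ± 553.8 in wild type. JAR1, which conjugates jasmonate to isoleucine and so makes the active hormone, averaged 2964 ± 330.0 in djc62 and 774.0 ± 87.6 in wild type, a log2 change of 1.94. Against djc31, 10 of the 15 were higher in djc62 and 0 were lower, by 1.76 for LOX3, 1.27 for OPR3 and 0.86 for JAR1 on the log2 scale (adjusted p = 0.00018, 0.000682 and 0.00168). In the double mutant against djc31 3 of the 15 rose and 4 fell, and the median was 0.04. LOX3 averaged 1235 ± 434.7 in the double mutant and 999.0 ± 304.4 in djc31 (log2 change 0.29, adjusted p = 0.336), and AOC2 fell, with 2743 ± 177.9 and 4452 ± 791.5 (-0.68, adjusted p = 0.00114). Without djc31 replicate 2 the count of 4 that fell became 2.

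The enzymes that inactivate jasmonate rose too. Of 7 tested genes 6 rose and 0 fell in djc62 against wild type, with a median log2 change of 2.41. IAR3, an amidohydrolase that splits the isoleucine conjugate, had 2239, 2561 and 2266 normalised counts in djc62, against 636.3, 695.7 and 510.2 in wild type (1.95 ± 0.15 SE, adjusted p = 3.29e-08). The sulfotransferase ST2A had 62.9, 86.5 and 55.4 in djc62, against 2.03, 0 and 0 in wild type, so that it was at or near 0 in wild type and plainly read in djc62 (5.56 ± 0.64 SE, adjusted p = 4.99e-06). CYP94B1, which oxidises the conjugate, averaged 84 ± 4.5 in djc62 and 16.5 ± 9.62 in wild type. It was higher in all 3 comparisons, by 2.41 against wild type, by 1.24 in the double mutant against djc31 and by 1.42 against djc31 (adjusted p = 0.000152, 0.0207 and 0.0212). The related CYP94B3 rose in djc62 (19.1 ± 4.33 against 0.773 ± 1.34 in wild type) and fell in the double mutant (0.496 ± 0.859 against 18.5 ± 13.1 in djc31).

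JAZ proteins repress jasmonate responses and are themselves induced by the hormone, and their genes did not move as a block. Among 17 repressor genes tested 7 rose and 2 fell in djc62, with a median log2 change of 0.55. JAZ10 had 326.2, 384.9 and 330.4 normalised counts in djc62, against 124.0, 87.6 and 133.3 in wild type, with no overlap (1.60 ± 0.24 SE, adjusted p = 8.89e-05). JAZ2 rose, with 1595 ± 301.0 in djc62 and 791.1 ± 36.7 in wild type, and JAZ9 rose by 0.88. The largest change of the group went the other way: JAZ7 had 24.5, 95 and 35.4 normalised counts in djc62, against 620.0, 408.1 and 573.9 in wild type (-3.56 ± 0.48 SE, adjusted p = 3.16e-05). JAZ7 averaged 48.9 ± 19 in djc31, and djc62 did not differ from djc31 there by the test (-0.08, adjusted p = 0.93), whereas JAZ10, JAZ2 and JAZ9 were each higher in djc62 than in djc31, by 1.42, 1.22 and 1.14. With the double mutant against djc31, 8 of the 17 rose and 0 fell, JAZ10 and JAZ2 among those that rose (0.92 and 0.70). Without djc62 replicate 1 or 3, or wild type replicate 1 or 3, 1 gene of the list fell instead of 2.

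Genes known as targets of jasmonate rose together as well. Of 11 tested 9 rose and 0 fell, with a median log2 change of 1.97. The rise was present in djc31 against wild type too, where 8 of the 11 rose and 0 fell (median 1.25). VSP1, a vegetative storage protein used as a marker of jasmonate response, had 556.8, 608.8 and 278.0 normalised counts in djc62, against 34.6, 29.7 and 27.8 in wild type (3.85 ± 0.37 SE, adjusted p = 5.92e-07). The lowest djc62 library was still far above the highest wild-type library. VSP2 averaged 1625 ± 252.2 in djc62 and 414.6 ± 62.5 in wild type, and CORI3, a cystine lyase, 2764 ± 543.7 and 561.8 ± 157.8. TAT3, a tyrosine aminotransferase, varied among the djc62 libraries, with 1109, 251.0 and 1777 normalised counts, against 10.2, 4.02 and 5.8 in wild type. Its log2 change was 6.77, and 7.60 without djc62 replicate 2. All 4 were also higher in djc62 than in djc31 (by 2.78, 1.09, 1.65 and 1.82, adjusted p = 0.000227, 0.00345, 0.000227 and 0.0206). With DJC31 absent the values were others: VSP1 averaged 131.8 ± 51.8 in the double mutant and 71.2 ± 33.1 in djc31 (0.93, adjusted p = 0.061), and TAT3 fell, with 66.4 ± 9.64 and 225.3 ± 32.7 (-1.75, adjusted p = 0.0119). The counts of rises in the synthesis, breakdown and target lists moved by at most 1 when any 1 of the 6 libraries was left out.

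**Figure D1:**
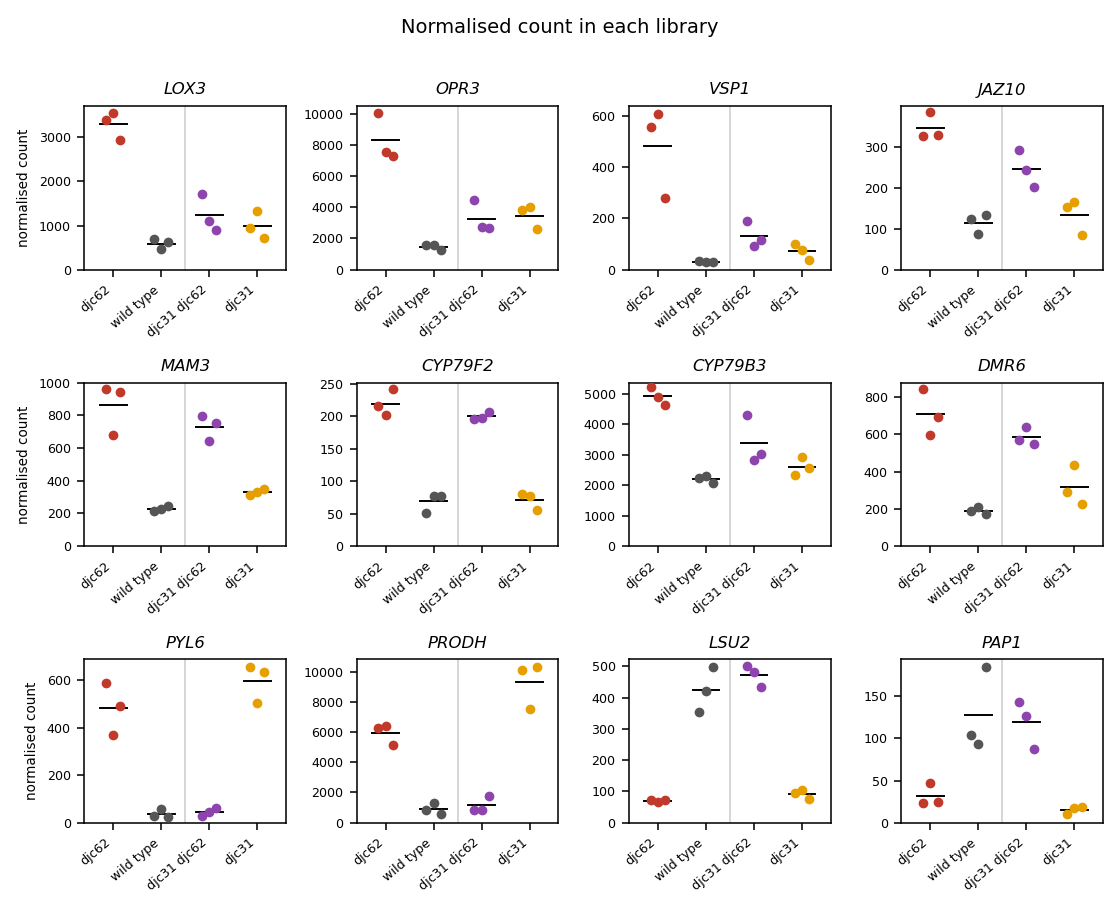
Normalised count in each library (vertical axis, linear, from 0) of 12 named genes in djc62, wild type, the double mutant djc31 djc62 and djc31, with 1 point per library and a line at the mean of 3 libraries. LOX3, OPR3 and VSP1 were highest in djc62, MAM3, CYP79F2 and DMR6 were higher in both genotypes that lack DJC62 than in their counterparts, and PYL6, PRODH, LSU2 and PAP1 moved one way in djc62 and the other way in the double mutant.

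Genes for aliphatic glucosinolates, which are made from methionine by chain elongation and a core pathway, rose in djc62 and rose again when DJC62 was lost in the djc31 background. Of 23 tested 10 rose and 2 fell in djc62 against wild type (median log2 change 0.34), and 18 rose and 1 fell in the double mutant against djc31 (median 1.02), with 0 that fell without double mutant replicate 1 or 2. All 10 that rose in the first comparison also rose in the second. The 2 differences share no library, though both tests use the spread over all 12 libraries. Of the 9 chain elongation genes 6 rose and 0 fell in djc62. MAM3, a methylthioalkylmalate synthase that adds carbon to methionine, had 963.4, 680.0 and 942.6 normalised counts in djc62, against 213.4, 229.0 and 245.8 in wild type. No library overlapped, and the log2 change was 1.89 ± 0.15 (SE, adjusted p = 4.32e-08). MAM3 averaged 732.1 ± 77.7 in the double mutant and 332.3 ± 18.5 in djc31, a change of 1.13 ± 0.15 (adjusted p = 3.50e-05). MAM1 and the aminotransferase gene BCAT4, which start the same elongation, rose by 0.86 and 0.83 in djc62 and by 0.59 and 0.80 in the double mutant.

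The P450 genes that commit methionine derivatives to the core pathway rose in both comparisons. CYP79F2 had 215.5, 201.8 and 242.6 normalised counts in djc62, against 51.8, 77.9 and 77.7 in wild type (1.68 ± 0.21 SE, adjusted p = 1.73e-05). It rose as well in the double mutant against djc31 (1.51, adjusted p = 8.99e-05), and djc62 exceeded djc31 by 1.64 (adjusted p = 0.000227). CYP79F1 averaged 5298 ± 502.8 in djc62 and 2472 ± 472.3 in wild type, and 6006 ± 654.0 in the double mutant and 2873 ± 399.0 in djc31. The change on loss of DJC62 did not differ by the test between the 2 backgrounds for CYP79F1 (adjusted p = 0.886), CYP79F2 (0.71) and BCAT4 (0.921), and it was larger in djc62 for MAM3 (0.01). Of the 23 aliphatic genes tested, 11 passed this test of the difference. For 10 of them the log2 change was higher in the double mutant against djc31, and for 1 in djc62 against wild type. In djc31 against wild type 1 of the 23 rose and 8 fell (median -0.34). CYP79F1 and CYP79F2 are near-identical neighbours, so reads may be split between them in a way the files do not show. The 3 MYB regulators of the list were not higher in djc62, where 0 rose and 1 fell, while all 3 rose in the double mutant. Without djc62 replicate 1 or wild type replicate 1, 1 gene of the aliphatic list fell in djc62 instead of 2.

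Indolic glucosinolate genes, which start from tryptophan, also rose in djc62, 10 of 16 tested with 2 that fell and a median log2 change of 0.66. CYP79B3, which makes indole-acetaldoxime from tryptophan, had 5210, 4899 and 4643 normalised counts in djc62, against 2248, 2292 and 2074 in wild type (1.16 ± 0.13 SE, adjusted p = 5.79e-06). Its twin CYP79B2 rose by 0.85 in djc62 and by 1.44 in the double mutant against djc31, where CYP79B3 changed by 0.36 (adjusted p = 0.0513). A pair of methyltransferase genes of this pathway moved in opposite directions. IGMT1 had 144.5, 137.4 and 140.9 normalised counts in djc62, against 16.3, 52.2 and 16.2 in wild type, while IGMT2 had 60.6, 50.9 and 53.1 in djc62, against 272.4, 202.4 and 253.9 in wild type. The pair are close neighbours of high sequence likeness, and their reads may be uncertain for that reason. MYB51, a regulator of the indolic branch, fell (203.7 ± 37.8 in djc62, against 471.0 ± 126.1 in wild type). Among breakdown genes 5 of 8 rose and 0 fell (1 without djc62 replicate 1), and both leaf myrosinase genes were among those that rose. TGG2 averaged 18352 ± 2590 in djc62 and 9662 ± 703.3 in wild type and TGG1 averaged 44273 ± 5068 and 28883 ± 2542, but neither passed the test in the double mutant (-0.24 each, adjusted p = 0.129 and 0.142) or between djc62 and djc31 (adjusted p = 0.964 and 0.232).

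Genes of salicylic acid and pathogen defence, among them phytoalexin and pattern receptor genes, were mostly higher in djc62. Of 33 tested genes 21 rose and 5 fell, with a median log2 change of 1.17, and all 5 tested targets rose. Without djc62 replicate 2 or wild type replicate 1 the count that fell was 3. The double mutant against djc31 had 10 that rose (6 without double mutant replicate 2) and 5 that fell (3 without double mutant replicate 1 or 3 or djc31 replicate 2 or 3). Against djc31, 7 were higher in djc62 (11 without djc62 replicate 2) and 1 was lower (0 without djc62 replicate 1 or 2 or djc31 replicate 2). DMR6, a hydroxylase that inactivates salicylic acid, had 844.6, 596.9 and 692.3 normalised counts in djc62, against 191.1, 208.9 and 170.4 in wild type (1.89 ± 0.20 SE, adjusted p = 1.81e-06). It was higher in the other comparisons too: the double mutant averaged 586.6 ± 48.2 and djc31 316.0 ± 108.8 (0.94, adjusted p = 0.00194), and djc62 exceeded djc31 by 1.21 (adjusted p = 0.00107). EDS5, the transporter needed for salicylic acid production, averaged 171.5 ± 32.8 in djc62 and 64.4 ± 10.1 in wild type, and rose in the double mutant too (0.63, adjusted p = 0.039). AED1, an aspartyl protease gene induced in systemic immunity, had 554.5, 184.8 and 299.6 in djc62, against 58.9, 56.2 and 46.4 in wild type, and also rose in the double mutant (1.55).

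Other defence genes rose in djc62 against wild type and did not pass the test or fell in the double mutant against djc31. ACD6, a membrane protein that promotes salicylic acid accumulation, had 3577, 2564 and 4043 normalised counts in djc62, against 764.3, 626.6 and 849.9 in wild type (2.17 ± 0.24 SE, adjusted p = 3.61e-06). The double mutant stood at 643.8 ± 182.9 and djc31 at 1009 ± 393.9, and ACD6 exceeded djc31 in djc62 by 1.80 (adjusted p = 0.000251). WAK1, a wall-associated kinase, averaged 2103 ± 612.3 in djc62 and 214.3 ± 40.2 in wild type, and PCC1, a small membrane protein gene under pathogen and clock control, 3919 ± 1428 and 441.5 ± 102.6. PCC1 fell in the double mutant against djc31 (-1.35, adjusted p = 0.000624). PR2, a glucanase and marker of salicylic acid response, had 772.3, 174.7 and 891.0 in djc62, against 81.3, 46.6 and 42.9 in wild type. Its log2 change was 3.15, and 3.90 without djc62 replicate 2. The flagellin receptor FLS2 rose by 1.94 against wild type, fell by 1.19 in the double mutant against djc31, and was lower in djc62 than in djc31 (-0.63, adjusted p = 0.0225). Among the falls, NPR3, a receptor of salicylic acid that restrains its response, averaged 556.7 ± 100.8 in djc62 and 1388 ± 111.9 in wild type, with djc31 as low (584.5 ± 33.6).

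Chaperone genes, the surroundings in which DJC62 works, showed no common direction. Of 34 genes for HSP70, HSP90 and their TPR and other co-chaperones 8 rose and 4 fell in djc62, with a median log2 change of 0.10. HSP90-2, a constitutive cytosolic HSP90, had 3708, 4088 and 3731 normalised counts in djc62, against 1257, 1511 and 1796 in wild type (1.35 ± 0.14 SE, adjusted p = 1.13e-06). Its close copies HSP90-3 and HSP90-4 may share reads with it. HSP90-2 was nearly as high in djc31, at 3212 ± 544.5, and djc62 and djc31 did not differ by the test (adjusted p = 0.19). The HSP70 genes HSC70-4 and AT3G09440 fell: HSC70-4 had 65.2, 61 and 56.2 in djc62, against 226.7, 197.6 and 257.4 in wild type, and rose in the double mutant against djc31 (1.82, adjusted p = 3.44e-05). AT3G09440 averaged 1621 ± 111.0 in djc62 and 3602 ± 1157 in wild type. Of the 18 TPR co-chaperone genes 4 rose and 2 fell, DJC62 itself being 1 of those that fell. TTL4 rose (1150 ± 60.5 in djc62, against 419.8 ± 124.7 in wild type), and SGT1A, a co-chaperone of HSP90 in immune receptor assembly, fell (1176 ± 78 in djc62, against 1844 ± 131.6 in wild type) as it did in the double mutant (-0.54). The falls in these 2 comparisons were of like size for SGT1A, and their difference did not pass the test (adjusted p = 0.635).

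Heat shock factors and small heat shock proteins tended downward. Of 25 tested 0 rose and 10 fell, with a median log2 change of -0.33, and without wild type replicate 2 a count of 1 rose. Of all tested loci 13.0% fell. The fall was not particular to djc62, as 1 of the 25 rose and 9 fell in djc31 against wild type (median -0.36). Against djc31, 1 was higher in djc62 and 1 lower. In the double mutant against djc31 8 rose and 2 fell (median 0.53), and 14 passed the test of the difference with and without DJC31. HSFB2A, a repressing heat shock factor, had 129.3, 118.7 and 102.4 normalised counts in djc62, against 615.9, 335.8 and 666.7 in wild type (-2.14 ± 0.23 SE, adjusted p = 2.19e-06). The disaggregase HSP101 averaged 148.7 ± 22.4 in djc62 and 253.1 ± 20.8 in wild type. HSFB2A was as low in djc31 (99.3 ± 15.2), and neither gene differed between djc62 and djc31 by the test (adjusted p = 0.515 and 0.0925). Of 21 endoplasmic reticulum folding genes 2 rose and 3 fell, a share near that of all loci, and those counts became 1 and 1 when some single libraries were left out (djc62 replicates 1 or 3 for the rises, djc62 replicate 2 or wild type replicates 1 or 3 for the falls).

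Anthocyanin genes, which give the red pigments of stressed leaves, were lower in djc62. Of 19 flavonoid enzyme genes 0 rose and 8 fell (median log2 change -0.40), and 6 of the 8 anthocyanin genes were among those that fell. The fall was not particular to djc62. In djc31 against wild type 16 of the 19 fell and 0 rose (median -0.93). Against djc31, 6 of the 19 were higher in djc62 and 0 lower (median 0.40). TT7, a flavonoid hydroxylase gene, had 110.7, 128.9 and 159.4 normalised counts in djc62, against 317.1, 327.8 and 311.9 in wild type (-1.27 ± 0.21 SE, adjusted p = 0.000265). SCPL10, an acyltransferase that decorates anthocyanins, averaged 864.2 ± 73.9 in djc62 and 1810 ± 124.3 in wild type. PAP1, the MYB factor that switches the anthocyanin branch on, had 23.3, 47.5 and 24.6 in djc62, against 103.7, 93.2 and 185.5 in wild type (-1.98 ± 0.36 SE, adjusted p = 0.000495), and its bHLH partner TT8 averaged 36.9 ± 16 and 110.3 ± 6.18. The same genes moved up in the double mutant: 15 of 19 enzyme genes and all 8 anthocyanin genes rose against djc31, PAP1 by 2.87 (119.2 ± 28.4 in the double mutant, against 15.5 ± 4.26 in djc31), TT8 by 1.97, TT7 by 1.62 and SCPL10 by 1.57. Genes for repressors of the branch did not turn in this way. Of 8 tested 1 rose and 4 fell in djc62, and the same 4 fell in the double mutant, where 0 rose. MYBL2, 1 of these 4, was also lower in djc62 than in djc31. It had 1073, 1260 and 869.5 normalised counts in djc62, against 2453, 2131 and 2790 in wild type (-1.21 ± 0.14 SE, adjusted p = 4.48e-06), and the changes in the double mutant and against djc31 were -1.28 and -0.95 (adjusted p = 6.59e-06 and 0.000442). Of the 17 regulators in all, 2 rose and 8 fell. Without djc62 replicate 3, 0 rose and 5 fell, without wild type replicate 3 the count that fell was also 5, and without djc62 replicate 2 or wild type replicate 1 or 2 the count that rose was 1.

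The abscisic acid pathway showed a split by role. Receptor genes rose and the genes of the phosphatases that oppose the receptors fell. Of 9 receptor genes 7 rose and 0 fell (median 0.71), and of 7 phosphatase genes 0 rose and 4 fell (median -0.88). The split was present in djc31 against wild type too. There 6 receptor genes rose and 1 fell (median 0.70), and 0 phosphatase genes rose and 5 fell (median -1.23). Against djc31, djc62 was higher at 1 receptor gene and 1 phosphatase gene and lower at 0 of either. PYL6, a receptor, had 589.5, 368.0 and 492.9 normalised counts in djc62, against 27.4, 57.8 and 23.2 in wild type (3.79 ± 0.32 SE, adjusted p = 1.66e-07). AHG3, a phosphatase, averaged 1413 ± 156.6 in djc62 and 3454 ± 372.7 in wild type (-1.29 ± 0.13 SE, adjusted p = 9.82e-07). Both moved the other way in the double mutant: PYL6 averaged 45 ± 18.4 there and 597.9 ± 83.2 in djc31 (-3.78, adjusted p = 8.37e-07), and AHG3 rose by 0.58. Of the 9 receptors 1 rose and 5 fell in that comparison. BG1, a glucosidase that releases the hormone from its glucose ester, rose in all 3 comparisons, with 13494 ± 1176 in djc62 and 4179 ± 306.7 in wild type (1.69), by 0.54 in the double mutant and by 0.61 against djc31. NCED3, the rate-limiting enzyme of synthesis, and CYP707A3, which breaks the hormone down, both fell. NCED3 averaged 79.4 ± 15.3 in djc62 and 262.4 ± 22.3 in wild type, and CYP707A3 225.0 ± 12.7 and 1289 ± 649.0. The kinase gene SNRK2.2 rose, at 1199 ± 75.7 in djc62 and 377.2 ± 32.1 in wild type, but was higher still in djc31 (1690 ± 213.4).

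Among dehydration, cold and proline genes 9 of 32 rose and 9 fell in djc62. Proline genes gave the clearest pattern. PRODH, which degrades proline, had 6267, 6422 and 5160 normalised counts in djc62, against 841.6, 1311 and 582.0 in wild type (2.78 ± 0.27 SE, adjusted p = 8.11e-07), and P5CS1, the main synthesis enzyme, had 1298, 1459 and 1667 in djc62, against 4289, 3406 and 3776 in wild type (-1.38 ± 0.17 SE, adjusted p = 1.32e-05). The double mutant showed the reverse: PRODH averaged 1144 ± 549.0 there and 9333 ± 1587 in djc31, and P5CS1 7641 ± 918.2 and 1075 ± 326.0. The zinc finger genes ZAT10 and ZAT12, which respond within minutes to touch, cold and reactive oxygen, were low in djc62: ZAT12 had 28, 30.5 and 30 normalised counts in djc62, against 420.8, 235.4 and 620.3 in wild type, and ZAT10 averaged 103.2 ± 7.48 and 1009 ± 377.9. Neither differed between djc62 and djc31 by the test (adjusted p = 0.0741 and 0.115). The dehydrin gene ERD10 rose (4790 ± 289.2 in djc62, against 2390 ± 60.4 in wild type) and fell in the double mutant (-0.69).

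In the oxidative stress list 5 of 21 rose and 4 fell. DHAR1, a dehydroascorbate reductase that recycles ascorbate, had 12591, 10890 and 10628 normalised counts in djc62, against 3042, 2647 and 3536 in wild type (1.89 ± 0.15 SE, adjusted p = 4.10e-08). The copper superoxide dismutase gene CSD2 and the gene of its copper chaperone CCS fell in both DJC62-loss comparisons. CSD2 averaged 15883 ± 645.4 in djc62 and 26477 ± 3115 in wild type, and 5016 ± 566.9 in the double mutant and 20197 ± 2909 in djc31. CCS averaged 2471 ± 81.9 in djc62 and 4222 ± 134.1 in wild type, and 1280 ± 166.6 and 3442 ± 197.2 in the other pair. The fall was larger in the double mutant for each (difference of log2 changes, adjusted p = 3.79e-05 and 0.00225). Of the 8 genes for superoxide dismutases and CCS 1 rose and 4 fell in djc62, and 0 rose and 7 fell in the double mutant.

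Genes that mark sulfur deficiency were lower in djc62, although some genes of sulfate assimilation, which feeds glucosinolate synthesis, were higher. Of 10 deficiency markers 0 rose and 5 fell (median log2 change -1.01), and of 10 assimilation genes 4 rose and 1 fell. The fall of the markers was not particular to djc62. In djc31 against wild type 0 markers rose and 6 fell (median -1.67). Against djc31, 1 marker was higher in djc62 and 0 lower, and in the double mutant against djc31 6 rose and 0 fell. Of the assimilation genes 1 rose and 6 fell in djc31 against wild type, and 7 were higher and 0 lower in djc62 than in djc31. LSU2, whose name stands for response to low sulfur, had 73.4, 65.3 and 71.6 normalised counts in djc62, against 353.7, 421.0 and 499.7 in wild type (-2.57 ± 0.18 SE, adjusted p = 1.04e-08). LSU2 averaged 472.7 ± 34.6 in the double mutant and 91.3 ± 14.4 in djc31 (2.37, adjusted p = 2.09e-07). Its relative LSU1 had 0, 3.39 and 4.62 in djc62, against 145.3, 91.6 and 200.6 in wild type. That log2 change was -5.59, and -4.81 without djc62 replicate 1. SDI2 fell by 1.49 and APR1, the reductase that controls assimilation, by 0.84, and both rose in the double mutant (2.42 and 1.97). APK2, the kinase that provides activated sulfate for glucosinolates, rose in all 3 comparisons, with 4379, 3803 and 4094 in djc62 against 2759, 2503 and 3337 in wild type (0.52 ± 0.12 SE, adjusted p = 0.00402), and by 1.15 in the double mutant and 1.12 against djc31. Over the whole list of 26 sulfur genes 5 rose and 8 fell, and without djc62 replicate 3 the count that fell was 5.

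Genes induced by darkness and sugar starvation rose in djc62, 9 of 17 with 1 that fell (median 0.63; 2 fell without djc62 replicate 2). DIN6, the asparagine synthetase that is read in the dark, had 2825, 3540 and 3298 normalised counts in djc62, against 86.4, 79.5 and 64.9 in wild type. The genotypes were far apart (5.37 ± 0.16 SE, adjusted p = 3.61e-14). DRM1, a dormancy marker, averaged 1485 ± 210.5 in djc62 and 571.5 ± 127.2 in wild type, and BCAT2, which breaks down branched amino acids, 78.9 ± 11.6 and 13.5 ± 9.25. TPS8, a trehalose phosphate synthase gene, fell (3614 ± 757.7 in djc62, against 6628 ± 880.8 in wild type). DIN6 was also high in djc31, at 4114 ± 578.6, did not differ between djc62 and djc31 by the test (adjusted p = 0.142), and fell in the double mutant, to 1301 ± 286.5.

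Photosynthesis genes of the nucleus changed little in djc62 against wild type, but were lower in djc62 than in djc31. Of 48 light-harvesting and photosystem genes 0 rose and 6 fell, a share near the 13.0% of all loci that fell, with a median log2 change of -0.23. Without djc62 replicate 3, 2 of them fell. LHCB7, an antenna protein, fell, with 534.7, 481.6 and 476.7 normalised counts in djc62, against 969.6, 883.7 and 992.5 in wild type (-0.93 ± 0.12 SE, adjusted p = 1.85e-05). PSAG, a photosystem I subunit, averaged 9597 ± 1542 in djc62 and 14887 ± 2471 in wild type (-0.63). The djc31 plants stood above wild type at some of these genes: 13 of the 48 rose in djc31 against wild type and 1 fell (median 0.34). Against djc31, 33 of the 48 were lower in djc62 and 0 higher, beside 5.85% of all loci, with a median of -0.57, and 17 of the 18 antenna genes were among them. That count was 17 without djc62 replicate 2 and 11 without djc62 replicate 3. The double mutant against djc31 had 46 of the 48 that fell, with a median of -0.83. Calvin cycle genes (3 of 16 fell) and chlorophyll synthesis genes (2 of 13 fell) had 0 that rose. The Calvin cycle count that fell was 0 without djc62 replicate 3 and 1 without djc62 replicate 2 or wild type replicate 1 or 3. The chlorophyll count was 0 without wild type replicate 1 and 1 without djc62 replicate 2 or 3 or wild type replicate 3.

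Transcripts of the chloroplast genome itself were lower. Of 85 tested chloroplast loci 0 rose and 25 fell in djc62, with a median log2 change of -0.86. YCF10, an open reading frame for an envelope protein, had 114.2, 144.1 and 110.1 normalised counts in djc62, against 314.1, 379.2 and 397.7 in wild type (-1.56 ± 0.22 SE, adjusted p = 4.58e-05). It fell as well in the double mutant (149.6 ± 42, against 301.9 ± 60.7 in djc31) and was lower in djc62 than in djc31 (-1.28, adjusted p = 0.00152). These loci took 0.021% to 0.033% of the reads in djc62 libraries and 0.04% to 0.047% in wild-type libraries. The part of library preparation in these small shares was not tested.

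Clock genes divided by their time of day. Of 13 genes that peak around dawn 0 rose and 8 fell (median -0.56), and of 9 evening genes 5 rose and 1 fell (median 0.63). Over the list of 28, 10 fell, and 6 fell without djc62 replicate 1 or wild type replicate 1. The same division was present in djc31 against wild type. There 1 dawn gene rose and 8 fell (median -0.86), and 5 evening genes rose and 0 fell (median 0.71). Against djc31, djc62 was higher at 4 dawn genes and lower at 1, and higher or lower at 0 evening genes. LHY, a dawn factor at the core of the clock, had 2161, 2358 and 2678 normalised counts in djc62, against 3870, 3759 and 4322 in wild type (-0.73 ± 0.12 SE, adjusted p = 0.000178). PRR5, an evening repressor, had 74.6, 100.0 and 114.7 in djc62, against 6.1, 11.2 and 2.32 in wild type (3.86 ± 0.47 SE, adjusted p = 1.04e-05). COL2, an output gene, fell by 1.42, and the dawn genes CDF1 and LNK3 fell by 1.22 and 0.79, while GRP7, a clock-controlled RNA-binding protein gene, rose (2165 ± 356.4 in djc62, against 933.8 ± 19.9 in wild type). PRR5 averaged 112.7 ± 34.5 in djc31, and djc62 and djc31 did not differ there by the test (adjusted p = 0.823). PRR5 and GRP7 fell in the double mutant against djc31 (-2.18 and -2.24) and LHY and CDF1 rose (0.53 and 0.49). The part of this shift in the other results was not tested.

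Flowering, growth and cell cycle genes held few changes in common. Of 26 flowering genes 4 rose and 3 fell, with 5 that fell without djc62 replicate 1. The floral repressor gene SVP fell (1714 ± 82.4 in djc62, against 3140 ± 398.7 in wild type), and the repressor genes MAF4 and AP2 rose, MAF4 with 33.8, 60.2 and 76.2 in djc62, against 4.07, 1.61 and 6.96 in wild type, and AP2 by 1.35. Of 31 brassinosteroid genes 6 rose and 4 fell, but without djc62 replicate 2 only 2 rose, and 3 without djc62 replicate 3 or wild type replicate 1 or 3. The wall genes TCH4 (a xyloglucan endotransglucosylase) and EXPA8 (an expansin) fell steeply. TCH4 had 1710, 2365 and 994.2 normalised counts in djc62, against 16410, 15616 and 10941 in wild type (-3.15 ± 0.27 SE, adjusted p = 2.02e-07), and EXPA8 167.7, 210.3 and 110.9, against 1532, 1132 and 2116 (-3.28 ± 0.22 SE, adjusted p = 8.73e-09). EXPA8 was lower in djc62 than in djc31 too (-0.95, adjusted p = 0.0106), while TCH4 was not by the test (0.49, adjusted p = 0.242). The co-receptor gene BAK1 rose by 0.61. Cell division genes hardly moved, with 0 of 24 that rose and 3 that fell (1 without djc62 replicate 3), whereas 19 of them rose in the double mutant against djc31, and 11 and 12 did so without double mutant replicates 2 and 3. In the hypoxia list 5 of 13 rose (3 without djc62 replicate 3) and 2 fell (1 without djc62 replicate 1 or wild type replicate 1), with PDC2, a pyruvate decarboxylase, at 381.4 ± 72.2 in djc62 and 136.0 ± 16.7 in wild type. SUS4, a sucrose synthase gene of this list, fell in all 3 comparisons (-1.61, -1.55 and -1.72). In the iron list 2 of 11 rose (1 without djc62 replicate 2 or 3 or wild type replicate 3) and 2 fell. The ferric reductase gene FRO3 rose by 1.95, and NAS1, for a metal chelator, fell by 0.99.

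**Figure D2:**
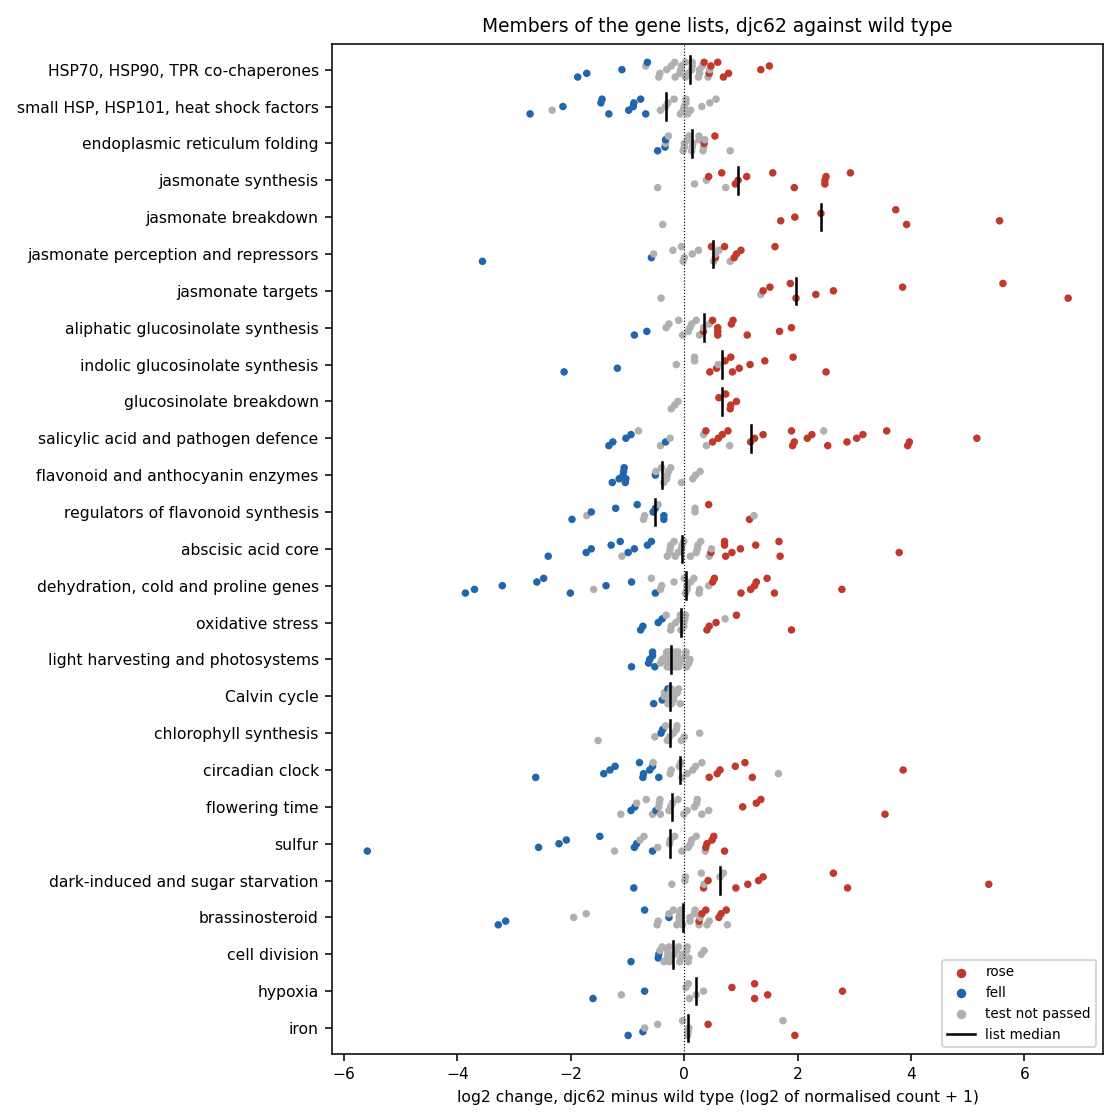
Log2 change of every tested member of 27 gene lists in djc62 against wild type (horizontal axis, log2 of normalised count + 1), 1 point per gene, in red where it rose, blue where it fell and grey where the test was not passed, with a black bar at the list median. Jasmonate breakdown and jasmonate targets have the medians farthest to the right (2.41 and 1.97), and small heat shock proteins, flavonoid enzymes and flavonoid regulators lie to the left of 0.

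**Figure D3:**
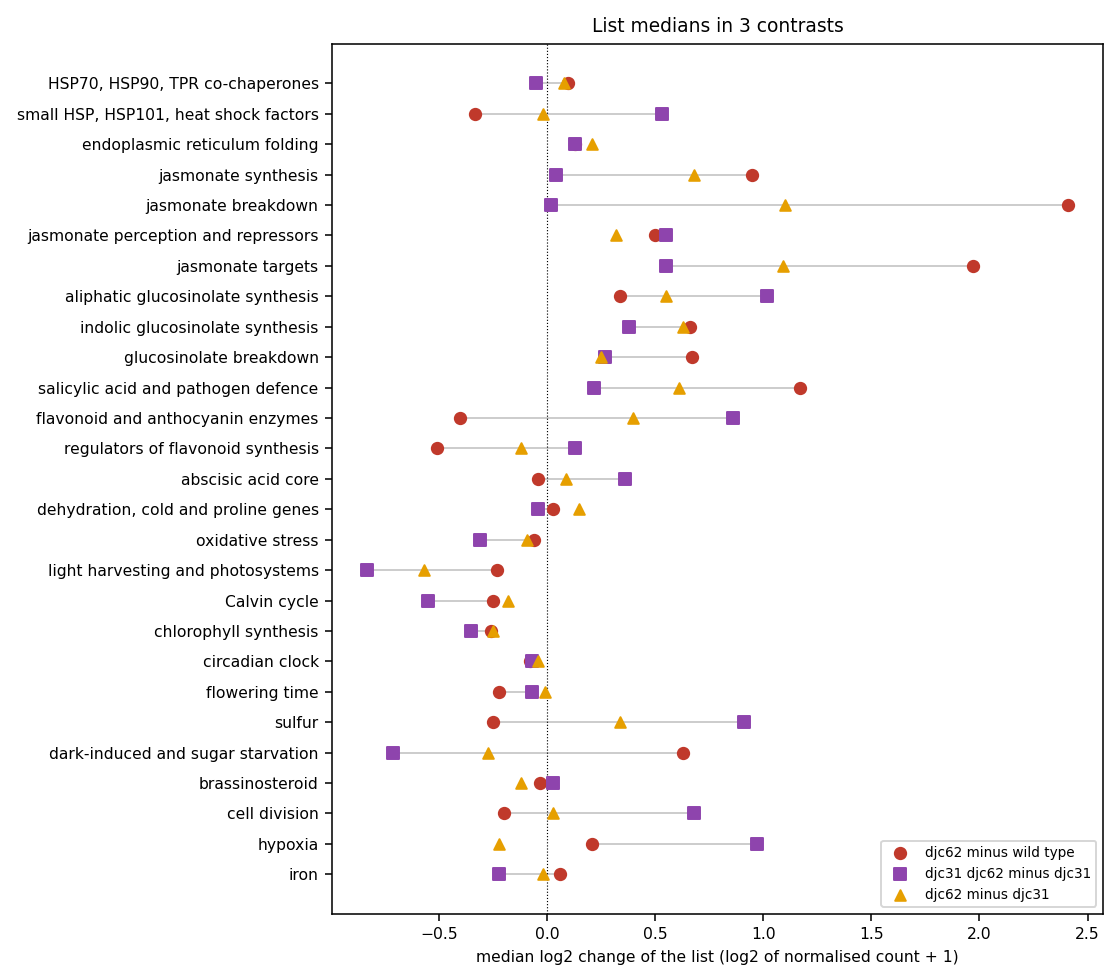
Median log2 change of each list (horizontal axis) in djc62 minus wild type (circles), the double mutant djc31 djc62 minus djc31 (squares) and djc62 minus djc31 (triangles), with a grey line between the first 2. Aliphatic glucosinolate genes lie to the right of 0 in all 3 (0.34, 1.02 and 0.55), whereas flavonoid enzymes (-0.40 and 0.86) and dark-induced genes (0.63 and -0.71) change side between djc62 and the double mutant.

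Gene families, taken as genes whose symbols share the letters before the first digit, were compared across 227 families with at least 8 tested members. Families with the highest share of members that rose were GRXS glutaredoxins (7 of 9), CRF cytokinin response factors (8 of 11), RAP genes (7 of 11), ERD genes (7 of 12) and ABCG transporters (17 of 34 with 0 that fell). A shared symbol does not make a protein family. RAP holds factors of the AP2 type and RAP74, a subunit of a general transcription factor, which did not pass the test. ERD genes encode unrelated proteins, and not all were named for dehydration (ERD2, which rose by 1.11, and ERD2B were not). In the double mutant against djc31, 0 GRXS genes rose and 3 fell, 0 CRF genes rose and 3 fell, 3 RAP genes rose and 4 fell, 0 ERD genes rose and 6 fell, and 9 ABCG genes rose and 2 fell. Against djc31, djc62 was higher at 1 GRXS, 3 CRF, 1 RAP, 2 ERD and 6 ABCG genes, and lower at 2 CRF genes and 1 RAP gene. GRXS4 had 358.8, 410.4 and 219.5 normalised counts in djc62, against 60, 146.2 and 53.3 in wild type. Several GRXS genes lie side by side with similar sequence and may share reads. CRF5 averaged 538.6 ± 92.6 in djc62 and 135.5 ± 7.43 in wild type (1.97 ± 0.16 SE, adjusted p = 6.85e-08). RAP2.9 had 79.2, 103.4 and 100.9 in djc62, against 0, 3.21 and 11.6 in wild type, a log2 change of 4.66 that was 3.70 without wild type replicate 1 and 5.53 without wild type replicate 3. ABCG34, which exports defence compounds, rose by 2.21 (836.7 ± 122.0 in djc62, against 180.0 ± 22.3 in wild type), and ABCG11, a transporter for cuticle lipids, by 1.06, and each was also higher in djc62 than in djc31 (1.29 and 0.76).

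The families with the highest share that fell were DJC, FRO, LBD, LSH and BBX. Of 9 tested genes with a DJC symbol, which encode J-domain proteins, 6 fell and 0 rose. Over the larger set of 44 tested genes annotated as chaperones of the DnaJ-domain superfamily, looked at after the data were seen, 9 fell and 3 rose (20.5% and 6.82%, median log2 change -0.06). DJC62 itself is listed under the symbol TPR15 and is not counted among them. DJC82 averaged 327.0 ± 20.1 in djc62 and 699.1 ± 74.3 in wild type, DJC66 272.7 ± 45.5 and 571.4 ± 139.8, and DJC77 2747 ± 66.8 and 3648 ± 73.6. DJC77 fell in all 3 comparisons (-0.41, -0.51 and -0.46), while DJC82 rose in the double mutant (0.63). The shares were 4 of 8 for FRO, a symbol shared by ferric reductases and by FROSTBITE1 (AT5G67590), a subunit of mitochondrial complex I that rose, with the reductase gene FRO6 at 3856 ± 349.9 in djc62 and 7535 ± 1143 in wild type, 6 of 13 for LBD, 4 of 9 for LSH and 7 of 16 for BBX factors. In the double mutant against djc31, 2 FRO, 5 LBD, 2 LSH, 3 BBX and 1 DJC gene rose, and 1 FRO, 3 LBD, 0 LSH, 3 BBX and 2 DJC genes fell. Against djc31, 4 DJC genes were lower in djc62 and 0 higher. LBD11 and LSH3 fell by 1.62 and 1.03. BBX18 had 138.6, 217.9 and 194.1 in djc62, against 751.1, 568.0 and 1085 in wild type (-2.09 ± 0.25 SE, adjusted p = 7.45e-06).

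Among the 27 families with at least 25 tested members, a size chosen after the data were seen, CRK receptor kinases with cysteine-rich repeats had 16 that rose and 6 that fell of 35, and 13 of them were higher in djc62 than in djc31 with 0 lower. WRKY factors had 15 that rose and 6 that fell of 50, RLP receptor-like proteins 14 and 3 of 39, and UGT glycosyltransferases 12 and 2 of 42. On the falling side stood MYB factors (4 rose and 13 fell of 63), BZIP factors (2 and 8 of 26), UMAMIT amino acid transporters (4 and 10 of 34), AGP arabinogalactan proteins (0 and 7 of 27) and CASPL membrane proteins (0 and 6 of 27). Ribosomal protein families changed little against wild type, with 2 that rose and 4 that fell of 33 RPL genes and 1 and 0 of 32 RPS genes, as did NAC factors (4 and 2 of 53). In the double mutant against djc31, 20 RPL and 13 RPS genes fell, and 22 MYB and 16 UMAMIT genes rose.

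**Figure D4:**
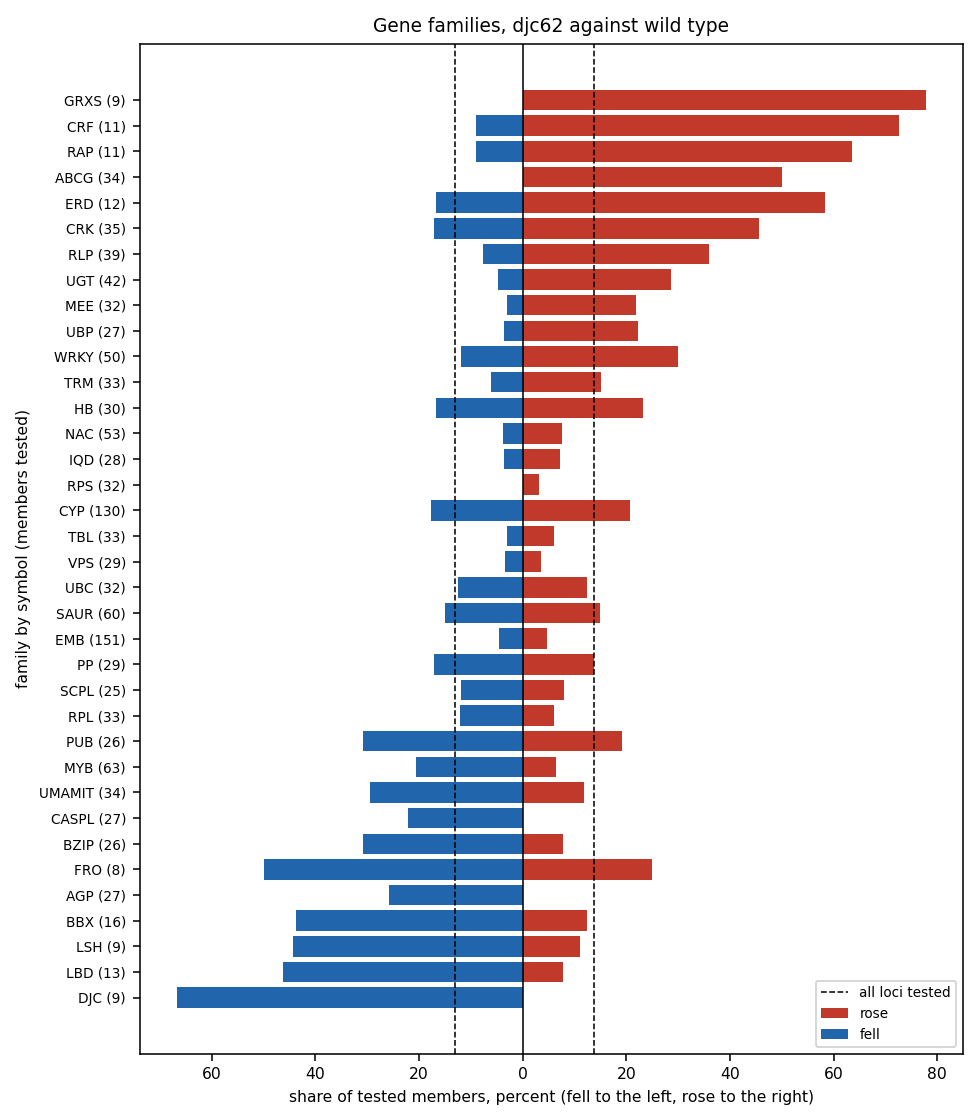
Share of tested members that rose (red, to the right) and fell (blue, to the left) in djc62 against wild type, in percent, for the families named by share and those with at least 25 tested members, with the number tested in brackets and dashed lines at the shares of all loci tested (13.7% and 13.0%). GRXS, CRF and RAP stand at the top, DJC at the bottom, and ribosomal protein families (RPL and RPS) lie inside the dashed lines.

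The largest rises were at loci where wild type was the genotype that stood apart. Of the 10 largest, 7 belong to the 34 loci with at most 3 wild-type reads and 9 lie at or near them, and their adjusted p-values between djc62 and djc31 were 0.0578 to 0.981. AT3G47250, of unknown function, had 2033, 2030 and 2223 normalised counts in djc62 and 0 in each wild-type library, at least 2159-fold higher by the limit of 3 reads over the wild-type libraries, with 1596 ± 264.8 in djc31 and 1726 ± 24.2 in the double mutant. AT1G11280, an S-locus lectin kinase gene, and VICTL, a gene of the disease resistance receptor type, were likewise at 0 in wild type and averaged 685.2 ± 52.7 and 638.4 ± 83.4 in djc62, at least 706.0-fold and 657.8-fold higher. HSD2, for a steroid dehydrogenase, averaged 3203 ± 192.0 in djc62 and 2.22 ± 2.32 in wild type, and HR4, a relative of the mildew resistance gene RPW8, 2080 ± 280.7 and 3.1 ± 1.93. The log2 change of HSD2, 10.28, was 9.60 without wild type replicate 2. Of the 10 largest falls 1 lay near such a locus, and their adjusted p-values between djc62 and djc31 were 0.406 to 1. AT3G60950 and AT1G27570 had 0 in every djc62 library, against 122.0, 147.0 and 169.3 and against 177.9, 143.0 and 97.4 in wild type, at least 162.5-fold and 155.1-fold lower by the same limit over the djc62 libraries. HISN6B, for an enzyme of histidine synthesis with a near-identical copy that may share its reads, averaged 4.22 ± 2.41 in djc62 and 287.9 ± 207.6 in wild type.

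**Figure D5:**
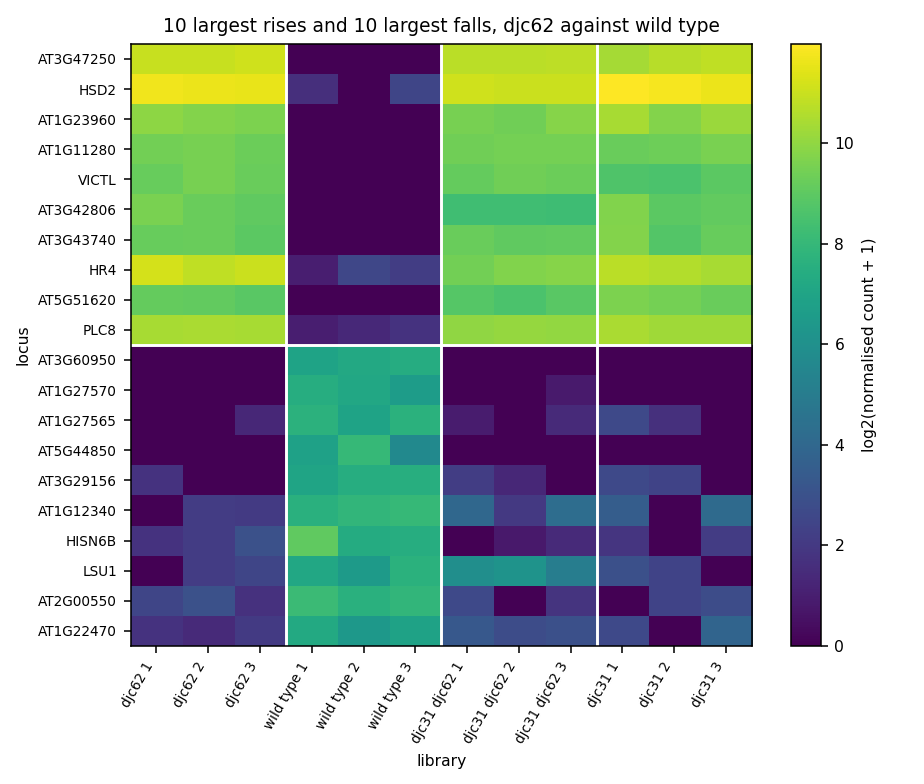
Heat map of log2(normalised count + 1) for the 10 loci with the largest rises (upper rows) and the 10 with the largest falls (lower rows) in djc62 against wild type, by library, with white lines between djc62, wild type, the double mutant and djc31. Wild type is the genotype that stands apart in nearly every row, and LSU1 is the fall that was higher in the double mutant than in djc31.

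The larger changes that did differ from djc31 were named by a rule chosen after the data were seen, as the 10 largest rises and falls among genes that passed in the same direction against djc31. FAMT, a farnesoic acid methyltransferase gene, had 1930, 1686 and 1871 normalised counts in djc62, against 148.4, 83.5 and 97.4 in wild type (4.09 ± 0.19 SE, adjusted p = 3.55e-11), and 468.3 ± 83.2 in djc31. MDAR3, a monodehydroascorbate reductase gene, had 510.2, 213.7 and 663.8 in djc62, against 14.2, 11.2 and 4.64 in wild type. TPS04, the terpene synthase gene of a jasmonate-induced volatile, had 158.4, 64.4 and 415.1 in djc62, against 10.2, 8.03 and 0 in wild type. Its log2 change of 5.13 was 4.02 without wild type replicate 3, 4.46 without djc62 replicate 3, 5.76 without wild type replicate 1 and 5.79 without djc62 replicate 2. LURP1, induced by pathogens, averaged 1581 ± 948.9 in djc62 and 113.3 ± 12.6 in wild type, and its change of 3.57 was 4.16 without djc62 replicate 2. AT5G54585, of unknown function, led the falls, with 30.3, 38.2 and 17.7 in djc62, against 308.0, 286.8 and 480.0 in wild type (-3.62 ± 0.25 SE, adjusted p = 1.32e-08), and 261.2 ± 27.8 in djc31. SADHU5-1, a non-coding retrotransposon of the Sadhu group, averaged 53.6 ± 23.3 in djc62 and 281.8 ± 49.7 in wild type.

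Among the 331 loci that rose both in djc62 against wild type and in the double mutant against djc31 were several of defence. GSTF7, a glutathione transferase induced in defence, had 718.8, 474.8 and 622.3 normalised counts in djc62, against 86.4, 133.4 and 82.3 in wild type (2.59), and 340.1 ± 44.8 in the double mutant, against 195.4 ± 52 in djc31 (0.82, adjusted p = 0.0113). JAL34, a mannose-binding lectin gene, averaged 868.6 ± 91.9 in djc62 and 151.3 ± 62.9 in wild type, and 852.9 ± 37.5 and 509.7 ± 141.6 in the other pair. AFP3, whose product binds the factor ABI5, averaged 158.2 ± 9.33 in djc62 and 36.3 ± 5.79 in wild type, and rose in the double mutant by 1.13. BGLU11, a glucosidase gene, was uneven among the djc62 libraries, with 31.5, 97.5 and 198.7, against 6.1, 11.2 and 23.2 in wild type, and its log2 change of 2.75 was 3.45 without djc62 replicate 1 and 2.14 without djc62 replicate 3. AT3G44670, a disease resistance receptor gene, rose by 3.04 and by 0.85.

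Among the 362 loci that fell in both comparisons, bt5, a BTB and TAZ domain protein gene, had 629.1, 732.5 and 488.3 normalised counts in djc62, against 2881, 2054 and 2654 in wild type (-2.04 ± 0.16 SE, adjusted p = 7.26e-08), and 616.5 ± 123.7 in the double mutant, against 1224 ± 58.9 in djc31 (-1.01, adjusted p = 0.000273). MES8 and MES18, members of a family of methyl esterases, fell by 2.01 and 1.59 in djc62 and by 1.58 and 0.90 in the double mutant. MES18 averaged 104.0 ± 11.5 in djc62 and 314.1 ± 34.3 in wild type. CML38, a calmodulin-like protein gene, averaged 275.8 ± 33.2 in djc62 and 913.2 ± 296.9 in wild type, and it was lower still in djc31 (214.4 ± 89.2) and the double mutant (113.4 ± 2.62).

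The plants were compared whole, so markers of single tissues were summed beside these results. Of 19 markers 9 could be tested, 4 were at 0 in all 6 libraries, and their summed level was 6723 to 7620 in djc62 and 5426 to 6541 in wild type. Guard cell markers (1380 to 1640 in djc62, against 1359 to 1569 in wild type) and the phloem marker SUC2 (2652 to 3453, against 2538 to 3150) overlapped between the genotypes. The sum of 6 root markers was higher in djc62 (2215 to 2561, against 1281 to 1575 in wild type), which was almost all PYK10, a glucosidase of roots and hypocotyls (2423 ± 189.2 in djc62 and 1422 ± 154.0 in wild type, a rise of 0.77), while 2 root markers were at 0. Trichome markers were higher in djc62 (216.7 to 313.7, against 139.1 to 205.7), with GL1 up by 1.36, and flower markers lower (3.39 to 16.2, against 42.9 to 68.3), with PI at 6.99, 1.7 and 8.47 in djc62, against 24.4, 45.8 and 26.7 in wild type. The part of these tissues in the results was not tested. Of the 4 seed markers 0 could be tested.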

How the data were processed

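RNA from whole plants of 4 genotypes, 3 libraries each, was sequenced on Illumina instruments. Per the submitters' processing notes reads were trimmed with Trimmomatic, checked with FastQC and counted with featureCounts on TAIR10, with no versions named. The labels and file headers name neither the aligner nor the strand setting, so reads of overlapping or near-identical genes may be misassigned. The authors deposited normalised counts per locus, read here as a signal scaled by a size factor for each library. Multiples of the smallest step gave whole reads for 100% of values (tolerance 0.01), and gene totals were 13.601 to 31.085 M reads. RefSeq tables matched 36632 loci to symbols, and no column of values was left unused.

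The design had assumed counts. As the values are normalised, log2(value + 1) was tested with limma 3.58.1 (R 4.3.3) with a mean for each genotype over 12 libraries (8 residual degrees of freedom), on loci that reached 10 in 3 or more libraries, with Benjamini-Hochberg adjustment at 0.05. The steps were tested on simulated data. Count tests on recovered reads (edgeR 4.0.16, DESeq2 1.42.0), other pseudocounts (0.5 and 5), filters (none and 50), TMM scaling, each library left out, a replicate block and fits without the loci near those silent in wild type were alternatives. The main test did not pair samples by replicate number, and whether equal numbers share a sowing or harvest is not stated.

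The genotypes, the 28 gene lists (662 loci) and the families were chosen with earlier results of these data known. Genes were named by rule: both DJC genes, the 10 largest rises and falls without overlap and with a mean of at least 100 in the higher genotype, up to 6 members per list by adjusted p, the 10 largest in both DJC62-loss comparisons, and up to 3 members of the 5 families with the highest share that rose or fell. The 10 largest that also passed against djc31, and the list counts without single libraries in the other comparisons, were added after seeing the data. Where a group had 0 reads in all 3 libraries, a fold is a bound against 3 reads over the group, and it covers counting error only. Sequences were not analysed here.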

Additional observations from a re-analysis of the deposited data

Results flagged for a closer look

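At 6236 loci the change on loss of DJC62 differed between plants with and without DJC31 (limma, Benjamini-Hochberg adjustment of the difference itself). For 43 of the genes described, djc62 against wild type and the double mutant against djc31 had calls in opposite directions. The values here are the first log2 change minus the second, so a positive one means a rise in djc62 against wild type and a fall in the double mutant against djc31. Among jasmonate genes the difference was 8.52 for TAT3, 7.23 for CYP94B3, 4.81 for FAMT, 3.16 for AOC2, 2.47 for JAR1 and -4.86 for JAZ7. Defence genes gave 10.04 for HR4, 4.46 for PCC1 and 3.14 for FLS2. Among abscisic acid, dehydration and proline genes it was 7.57 for PYL6, 5.89 for PRODH, 1.69 for ERD10, -4.85 for ZAT12, -4.24 for P5CS1, -3.03 for CYP707A3 and -1.87 for AHG3. The anthocyanin genes PAP1, TT8, TT7 and SCPL10 gave -4.85, -3.61, -2.89 and -2.64, and the sulfur genes LSU1, LSU2, SDI2 and APR1 gave -9.52, -4.94, -3.90 and -2.81. Dark and sugar genes gave 7.05 for DIN6, 3.30 for DRM1 and -1.36 for TPS8. Clock genes gave 6.04 for PRR5, 3.44 for GRP7, -1.71 for CDF1 and -1.26 for LHY. Chaperone genes gave -3.70 for HSC70-4, -1.82 for AT3G09440 and -1.72 for DJC82. The other genes were RAP2.9 at 8.10, GRXS4 at 3.11, PDC2 at 2.87, GL1 at 2.69, EXPA8 at -5.01, LBD11 at -4.02, BBX18 at -3.29, LSH3 at -2.22 and NAS1 at -2.04.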

How the results depend on the processing

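The count of loci that changed between djc62 and wild type, 5326, lay between 3838 and 4797 when 1 library was left out, and was 5498 with edgeR, 6084 with DESeq2, 5328 with TMM scaling, 5287 with only the 6 libraries compared and 5075 once the neighbourhoods of the 34 silent loci were removed. The double mutant against djc31 gave 4073 to 6554 loci when 1 library was left out, beside 6255. Between djc62 and djc31 the range was 1112 to 3192, beside 2749, and the count was 1093 with only the libraries compared. For these 2 comparisons the cause was not tested. Same-numbered libraries of different genotypes had correlations of deviations of -0.151 to 0.106. With 3 libraries per genotype these values cannot settle whether equal numbers share a sowing or harvest. A fit with the replicate number as a block gave 5048, 5974 and 2379 loci in the 3 comparisons and 5867 for the difference with and without DJC31. Of 228 named genes 18 lost their call without djc62 replicate 3, 13 without wild type replicate 1, 12 without wild type replicate 3, 10 and 8 without djc62 replicates 2 and 1, 5 without wild type replicate 2, 7 without a filter on low values, 4 under the block and 1 each with edgeR, DESeq2 and TMM scaling, and 0 changed direction in these settings. At low depth a library holds few reads of genes with normalised counts under about 10, so their folds are imprecise.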
